A study of Mus musculus with 15 samples.

Results

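The regions described here are sites that carried PU.1 in macrophages with and without a hairpin against PU.1, yet gave no PU.1 peak on chromatin assembled in vitro. Joining the peaks of the 4 lists from cells (2 control, 2 with the hairpin against PU.1) wherever they touched by 1 bp or more gave 53107 regions. A region with a peak in all 4 lists is called kept, and 8666 regions were kept. Of these, 5246 regions (60.5%, exact 95% interval 59.5 to 61.6) shared not even 1 bp with a peak of the in vitro list. They are the subject here, and the remaining 3420 kept regions, which held an in vitro peak, serve as the comparison. Both sets were chosen by measured values, the presence or absence of a peak in the 5 lists, so this is a description and no result. Of the 21680 regions with a peak in both control lists, 8666 were kept. Of the same 21680, 15693 (72.4%) had no in vitro peak, and 33.4% of those are the 5246. By these counts, regions without an in vitro peak were kept less often than control regions in general, which include them. This too describes the peak calls that the rule used and is no result. All intervals on shares cover counting error only.

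Macrophage identity depends on PU.1, a transcription factor of the ETS family. It binds a purine-rich DNA element around a GGAA core and is known for marking macrophage enhancers, where it binds together with other lineage factors and where nucleosomes are displaced. Nucleosomes assembled from purified DNA and recombinant histones carry none of the histone marks or nucleosome positions set up in the living cell. Partner proteins can come only from the extract added. In vitro lists thus show where an extract's PU.1 is recovered on such templates.

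The cells were C57BL/6 mouse bone marrow-derived macrophages on day 7 of differentiation, all transduced with a doxycycline-inducible retrovirus. The control vector, called empty in the sample titles, carried a hairpin against Renilla luciferase (sh-Renilla), and the other carried shPu.1. Below, "under the hairpin" means the hairpin against PU.1. Both groups were selected with puromycin (3 µg/ml, from day 3), and doxycycline (0.5 µg/ml) was given on day 5 for 48 hours. PU.1 was then immunoprecipitated with a rabbit antibody raised against its N-terminus (n = 2 libraries in each group). For the in vitro list, nucleosomes were made by salt dialysis on naked macrophage DNA with recombinant histones. Nuclear extract of macrophages was added to them for 2 hours after immunodepletion, by either normal IgG or the PU.1 antibody, and the list holds peaks of the former over the latter (1 list, no replicate). The labels do not say whether replicates came from separate mice or cultures, so the spread between them may be technical. The lists hold no PU.1 transcript or protein level, and how far PU.1 was reduced cannot be read from them.

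The 4 lists from cells held 15122 to 36759 peaks, the fewest in shPU.1 replicate 1. Peaks were wider in both number 2 libraries (medians of 892 and 1076 bp) than in the number 1 libraries (435 and 448 bp). Read depth is unknown for every list. A peak's score is the MACS value that grows with enrichment and depth, so comparisons rest on ranks within a list, as percentiles with 100 as the highest. Raw scores are printed as deposited, and a lower score in one list than in another is not a measure of weaker binding. A score of 3100 recurs at the upper end of the scale, and the order of scores from there on is not read as strength. All positions are in mouse build mm9, counted from 1. Which genes lie at these positions was not analysed here.

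The weakest library set much of the membership. With shPU.1 replicate 1 left out, 9603 regions would have qualified, against 5246, while leaving out any other library gave 5398 to 5980. Among regions without an in vitro peak, 4357 lacked a peak only in shPU.1 replicate 1. The counterparts numbered 629 for shPU.1 replicate 2, 641 for control replicate 1 and 100 for control replicate 2. In the list of shPU.1 replicate 1, 729 of the 5246 regions (13.9%) scored below 60, close to the lowest deposited score of 50.01. In the other lists 1.20% to 4.25% did. The 4357 regions just outside had median scores of 103, 166 and 98.2 in control 1, control 2 and shPU.1 replicate 2, all below the medians of the 5246 inside (171, 308 and 247).

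At the other edge of the rule lies the in vitro overlap. The closest miss was chr6:98976517-98979268, 5 bases from an in vitro peak that scored 537. Next came chr1:94966746-94969185 at 14 bases and chr2:12005514-12006716 at 17 bases. The kept regions with the smallest overlap were chr6:113701712-113703359 with 2 bp, chr15:44447998-44449205 with 8 bp and chr10:98855448-98856947 with 16 bp. Such near ties were few. Only 20 of the 3420 in vitro-bound regions overlapped by less than 100 bp, the median overlap was 922 bp, and 141 of the 5246 regions without an in vitro peak (2.69%) had one within 0.5 kb.

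The strongest of these regions, chosen by mean percentile over the 4 lists, stood near the top of every library, as that choice favours. The first by mean percentile over the 4 lists was chr4:140122339-140123790, which scored 2213 (control 1), 3100 (control 2), 651 (shPU.1 replicate 1) and 3100 (shPU.1 replicate 2). Its nearest in vitro peak lay 17053 bases away and scored 80.3, in the lower part of that list. The second, chr6:120062140-120063346, had control scores of 1262 and 2104 and shPU.1 scores of 721 and 2065, with the nearest in vitro peak 23279 bases away. Both thus stood near the top of all 4 lists, with in vitro peaks only at a distance.

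The third was chr4:118797272-118800711 (1174 and 1514 in controls, 626 and 2486 under the hairpin). The fourth, chr5:115964930-115967607, had control scores of 1612 and 3100 and shPU.1 scores of 516 and 1789. The next were chr1:130486808-130488608, chr19:55734133-55735729, chr9:65381998-65385027, chr14:70574510-70576775, chrX:103381566-103383652 and chr17:84455765-84457587. All 10 exceeded the 98th percentile in each of the 4 lists, as the choice by mean percentile favours. They lay 4586 to 37620 bases from an in vitro peak. Their scores ran from 665 to 2213 in control replicate 1, 1335 to 3100 in control replicate 2, 440 to 3100 in shPU.1 replicate 1, and 1214 to 3215 in the list of its replicate 2. Of the 10 highest kept regions of either kind, 3 had no in vitro peak, where the share over all 8666 kept regions was 60.5%.

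**Figure D1:**
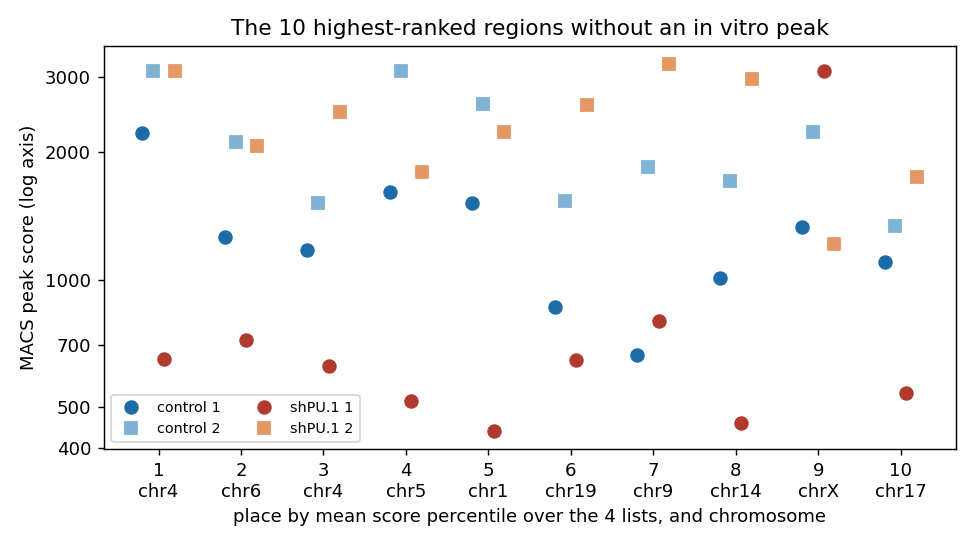
MACS peak score (log axis) of the 10 highest-ranked kept regions without an in vitro peak, in order of their mean score percentile; circles are replicate 1 and squares replicate 2, blue control and red or orange shPU.1, 1 point a library. Scores are not comparable between lists; within a list the points run from 665 to 2213 (control 1), 1335 to 3100 (control 2), 440 to 3100 (shPU.1 replicate 1) and 1214 to 3215 (shPU.1 replicate 2).

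Single lists had other leaders, named here by the deposited score although values from 3100 on are not ranked as strength. In control replicate 1 the leader was chr15:61820231-61823119, with 3100 in both number 1 libraries, but 1566 in control replicate 2 and 966 in shPU.1 replicate 2. In control replicate 2 it was chr7:87530913-87534394, at 3149, with 999.95 in control replicate 1, and 187 and 949 in the lists of shPU.1 replicates 1 and 2. In shPU.1 replicate 1 it was chrY:2874729-2902258, a region of 27530 bp that joined 9, 9, 11 and 1 peaks of control 1, control 2, shPU.1 replicate 1 and shPU.1 replicate 2. An in vitro peak with a score of 3100 lay 862 bases from it. In shPU.1 replicate 2 the leader was the chr9 region already named. The weakest inclusions scored 50.01 in control replicate 1 (chr6:83331240-83332864), 50.2 in control replicate 2 (chr3:20097653-20098550), 50.04 in shPU.1 replicate 1 (chr16:43448114-43449574) and 50 in the list of shPU.1 replicate 2 (chr18:67722466-67723236).

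Across all 5246 regions, scores ran from 50.01 to 3100 in control replicate 1, with a median of 171 (quartiles 103 and 287). In control replicate 2 the median was 308 (183 and 525). The shPU.1 medians were 92.6 (68.7 and 136) for replicate 1 and 247 (136 and 457) for replicate 2. As percentiles of all peaks in the same list, these medians stood at 76.4, 81.3, 63.6 and 78.8. Kept regions without an in vitro peak were thus above the middle of each list, as presence in all 4 lists favours.

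They ranked below the kept regions with an in vitro peak in every library. Median percentiles of the latter were 78.8 (control 1), 87.9 (control 2), 75.1 (shPU.1 replicate 1) and 87.1 (shPU.1 replicate 2). The gap (regions without minus regions with an in vitro peak) was -2.35 and -6.54 points in control replicates 1 and 2, and -11.4 and -8.32 points in the shPU.1 replicates. Its mean was -7.16 ± 3.79 (SD, n = 4 libraries), with an exact sign-flip permutation p of 0.125, two-sided, the smallest that 4 libraries allow. The SD pools both groups, and the p does not cover the spread of the single in vitro list that splits the regions. The gap was negative in all 4 lists on 15 of 19 autosomes. Regions lost from both shPU.1 lists and likewise without an in vitro peak stood lower still in the controls, at medians of 47.0 and 44.0, a difference that the rule itself selects through the shPU.1 lists.

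**Figure D2:**
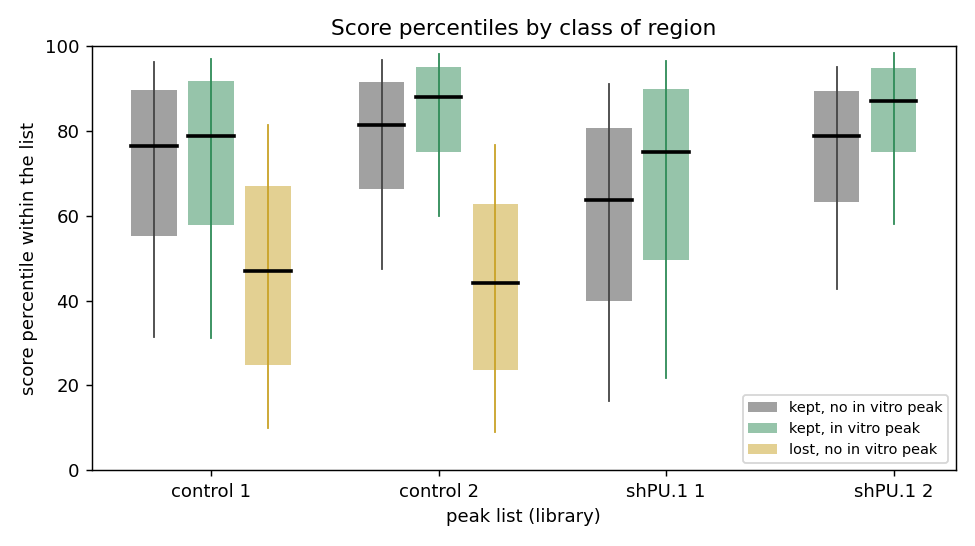
Score percentile within each list for kept regions without an in vitro peak (grey, 5246), kept regions with one (green, 3420) and lost regions without one (yellow, 5461, control lists only). Black bars are medians, boxes quartiles and lines the 10th to 90th percentiles of regions; the grey median lies below the green one in all 4 lists.

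The share of regions above the 90th percentile of a list gave the same order. In control replicate 1, 1271 of the 5246 (24.2%) lay there, where the share over all 8666 kept regions was 26.1%. In control replicate 2 it was 1507 (28.7%, against 34.5%). For shPU.1 replicate 1 it was 610 (11.6%, against 16.8%), and for replicate 2 it was 1222 (23.3%, against 30.5%). Regions with an in vitro peak reached 29.0%, 43.5%, 24.8% and 41.6%.

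Regions without an in vitro peak made up much of the top of the control lists and far less of the top of the shPU.1 lists. Over all kept regions they are 60.5%. Among the 100 kept regions with the highest scores they were 64 in control replicate 1 and 54 in control replicate 2, but 29 and 27 in the shPU.1 replicates. Among the 500 highest they were 55.2% (exact 95% interval 50.7 to 59.6) and 45.4% (41.0 to 49.9) in the controls. Under the hairpin they were 31.2% (27.2 to 35.5) and 31.0% (27.0 to 35.3). The groups did not overlap at either depth of the ranking, nor among the 1000 or 2000 highest, where the control values were 47.8% to 56.6% and the shPU.1 values 36.1% to 45.5%. Each of these depths contains the smaller ones, so they are not separate evidence.

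For the 500 highest, the mean was 50.3 ± 6.93% in control and 31.1 ± 0.14% in shPU.1 libraries (SD, n = 2 each), a difference of -19.2 points. The exact permutation p was 0.33, two-sided, the smallest that 2 against 2 libraries allow. The shPU.1 library was lower within both replicate numbers, by -24 points for number 1 and -14.4 points for number 2. Leaving out any one library gave -14.4 to -24.5 points. With lists limited to equal lengths the difference was -18.8 points, and with a minimum score of 100 in all lists it was -9.5 points. As deposited, control replicates 1 and 2 (30026 and 36759 peaks) had shares of 55.2% and 45.4%. Those of shPU.1 replicates 1 and 2 (15122 and 27733 peaks) were 31.2% and 31.0%. The part that read depth plays was not tested. This share was chosen for comparison after the values were seen.

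By decile of the score, control replicate 1 was nearly level, from 60.4% regions without an in vitro peak in the lowest decile to 55.3% in the highest. Control replicate 2 went from 74.97% to 47.6%. The shPU.1 lists went from 68.5% to 35.7% in replicate 1 and from 76.7% to 36.1% in replicate 2. The highest decile was where the libraries of the 2 groups separated most plainly. Its exact 95% intervals were 51.9 to 58.7 and 44.2 to 50.96 in the controls, against 32.5 to 39.0 and 32.9 to 39.4 under the hairpin. These intervals cover counting error over the regions of a list, not the spread between libraries, and no test was made on deciles. In the lowest decile, by contrast, control replicate 2 lay nearer to shPU.1 replicate 2 than to control replicate 1.

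**Figure D3:**
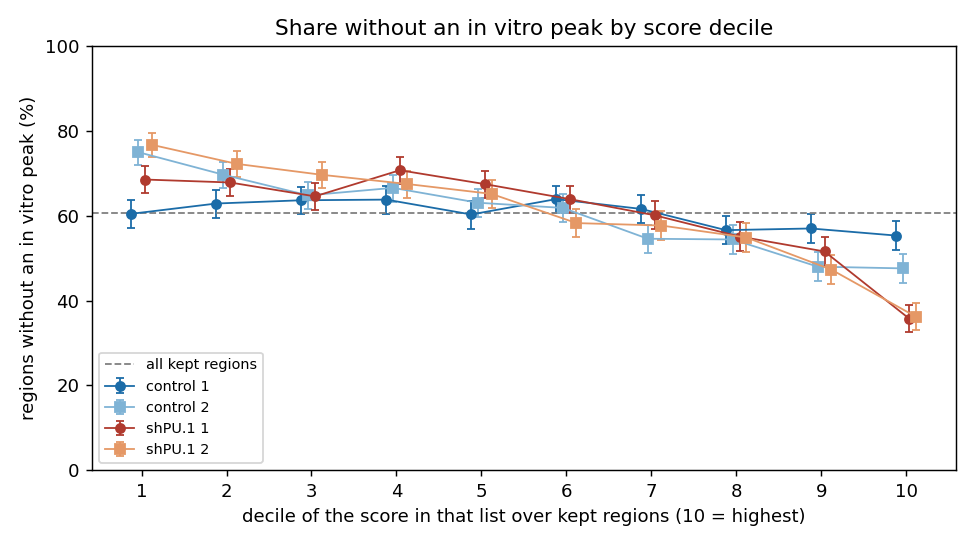
Percent of kept regions without an in vitro peak by decile of the score within each list (866 or 867 regions a point, bars exact 95% intervals, dashed line the share over all kept regions, 60.5%). At the highest decile the control lists stand at 55.3% and 47.6% and the shPU.1 lists at 35.7% and 36.1%.

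The percentile gap was also more negative under the hairpin, at -9.88 ± 2.20 points against -4.45 ± 2.96 in controls (SD, n = 2 each). The difference of -5.43 points had an exact permutation p of 0.33, two-sided. It was less even than the share among the highest regions: -9.09 points within number 1 and -1.78 within number 2. It was -3.22 without control replicate 1 and -8.16 without shPU.1 replicate 2. With equal list lengths the groups overlapped, since control replicate 2 (-9.89) was below shPU.1 replicate 1 (-9.56).

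Regions that stood high in both controls were therefore followed into the shPU.1 lists. In the top 25% of kept regions by score in both control lists were 741 regions without an in vitro peak and 711 with one. Of the 741, 255 (34.4%, exact 95% interval 31.0 to 38.0) were in the top 25% of both shPU.1 lists as well, and 153 (20.6%, 17.8 to 23.7) were in the lower 50% of both. Of the 711 with an in vitro peak, 459 (64.6%, 60.9 to 68.1) were in the top 25% of both shPU.1 lists and 25 (3.52%, 2.29 to 5.15) in the lower 50% of both. In the opposite direction the order depended on the base. Of 2202 regions without an in vitro peak in the lower 50% of both control lists, 45 (2.04%, 1.49 to 2.73) were in the top 25% of both shPU.1 lists, against 36 of 1102 (3.27%, 2.30 to 4.49) with one. Counted from the top 25% of both shPU.1 lists, these 45 were 7.51% of 599 regions without an in vitro peak (5.53 to 9.92), and the 36 were 4.17% of 864 with one (2.94 to 5.72). This comparison was chosen after the values were seen, and lists of different length show a place among kept regions, not a change in binding.

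**Figure D4:**
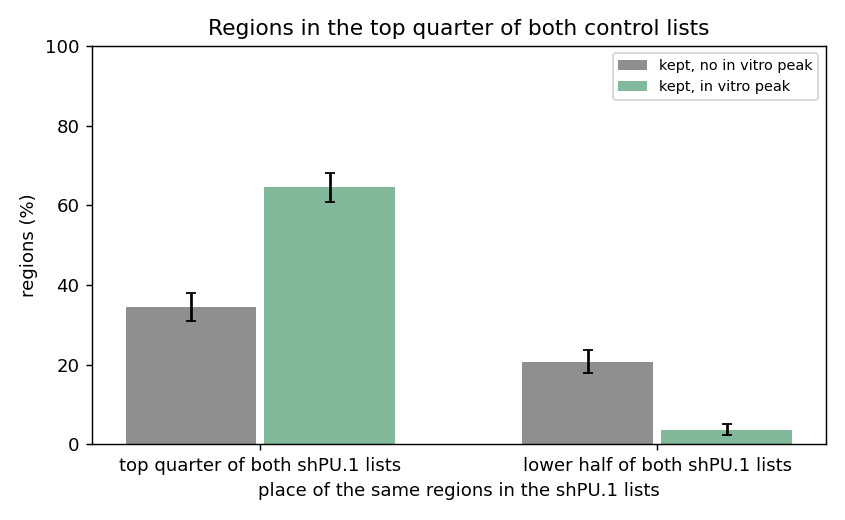
Of the kept regions in the top 25% of both control lists, the percent in the top 25% or in the lower 50% of both shPU.1 lists, for 741 regions without an in vitro peak (grey) and 711 with one (green); bars are exact 95% intervals. The grey share is 34.4% against 64.6% on the left and 20.6% against 3.52% on the right.

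The 255 and the 153 regions had median scores of 509.8 and 519 in control replicate 1 and of 965 and 818 in control replicate 2. Their shPU.1 scores differed because these chose them: 271 and 1066 in replicates 1 and 2 for the 255, and 75.6 and 164 for the 153. The 153 were wider (median 1865 against 1676 bp). They had another kept region within 10 kb in 22.2% of cases (exact 95% interval 15.9 to 29.6), against 32.2% (26.5 to 38.3). Median distances to an in vitro peak were 11976 bp (95% interval 9471 to 15165) and 12835 bp (11044 to 15563), with intervals that overlapped.

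Some of these regions are named here by their control rank (the 45 by their shPU.1 rank), chosen after their values were seen. Among the 153, the highest was chr2:32307183-32308772, with control scores of 1158 and 1533 and shPU.1 scores of 99.2 and 288. It was followed by chr7:26472098-26475393 (920.5 and 1561, then 68.8 and 116) and chr5:109097454-109098970 (779 and 1728, then 95.6 and 245). The 153 were low by rank among kept regions only, and their raw scores are not compared between lists. Among all peaks of the shPU.1 lists, the chr2 region stood at percentiles of 67.4 and 81.9. The chr7 region stood at 40.1 and 58.0, and the chr5 region at 65.4 and 78.7. Among the 255 the highest was chr11:109334838-109335852, with control scores of 2591 and 3100 and shPU.1 scores of 365 and 1210. Another was chr10:10277030-10278770, with 2065 and 2761, then 285 and 1060, only 756 bases from an in vitro peak. Of the 45 that were low in controls and high under the hairpin, by rank among kept regions, chr17:13113568-13114585 led. Its control scores were 110 and 203, at percentiles of 58.3 and 69.8 among all peaks. Its shPU.1 scores were 329 and 1534, at percentiles of 96.9 and 98.9.

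The order of scores was less alike between control and shPU.1 lists for regions without an in vitro peak than for those with one. Spearman's rho over the 5246 regions was 0.70 between the control lists, close to the 0.71 over the 3420 regions with an in vitro peak. Between control and shPU.1 lists it was 0.35 (number 1 libraries), 0.54 (number 2), 0.37 (control 1 with shPU.1 2) and 0.40 (control 2 with shPU.1 1). The same pairs gave 0.51, 0.67, 0.60 and 0.53 over regions with an in vitro peak. Between the shPU.1 lists it was 0.59 and 0.73. These are descriptions over regions that share their libraries, and both sets were cut at the same lowest score.

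Peaks without an in vitro counterpart were slightly narrower. Median widths were 481 and 1057 bp in the controls and 473.5 and 1296 bp under the hairpin, against 493, 1112, 500 and 1330 bp (the same order) with an in vitro peak. The log2 width ratio was -0.04, -0.07, -0.08 and -0.04, with a mean of -0.06 ± 0.02 (SD, n = 4 libraries, both groups pooled). The exact sign-flip permutation p was 0.125, two-sided, the smallest possible, and again does not cover the single in vitro list. Within deciles of mean percentile the ratio was -0.00063 (exact sign-flip permutation p 0.875), and whole regions were wider in 4 deciles, narrower in 5 and equal in 1. At a given rank the direction of the width difference was not constant.

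Merged regions were 536 to 27530 bp wide, with a median of 1392 bp, against 1431 bp for kept regions with an in vitro peak, for which 4 lists are joined as well. After the chrY region the widest were chr8:87499482-87507398 (7917 bp) and chr2:90920485-90927276 (6792 bp). The chr8 region had control scores of 603 and 1621 and shPU.1 scores of 108 and 241. The chr2 region scored 716 and 2637, then 232 and 629, and joined 5, 1, 3 and 1 peaks in control 1, control 2, shPU.1 replicate 1 and shPU.1 replicate 2.

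In vitro peaks lay at a median of 12241 bp (95% interval 11709 to 12812) from the regions, with quartiles of 4788 and 26153 bp. This rests on the deposited threshold: with a minimum score of 100 in the in vitro list the regions then without a peak lay at a median of 23059 bp. The same distance was 13672 bp (13187 to 14353) for lost regions without an in vitro peak and 13618 bp (13164 to 14252) for those with a peak in 1 of the shPU.1 lists. An in vitro peak within 1 kb was found for 303 of the 5246 (5.78%, exact 95% interval 5.16 to 6.44), for 5.18% (4.61 to 5.80) of lost and for 4.73% (4.16 to 5.36) of partial regions. Kept regions without in vitro binding were thus somewhat nearer to in vitro peaks than lost ones by median distance, while the intervals at 1 kb overlapped. They were also wider as merged regions (medians of 1392 and 987 bp), but kept regions join peaks of 4 lists and lost ones those of 2. Within a list the widths were closer: the median peak was 481 bp against 465 bp in control replicate 1, and 1057 bp against 956 bp in control replicate 2. Distances were measured from the merged regions, and the part that width plays was not tested. The in vitro list has no replicate, so the difference in distance has no test. There was no steady order with rank: from the lowest to the highest quartile of mean percentile the median distances of the 5246 were 12034.5, 12044, 13021 and 12161.5 bp.

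**Figure D5:**
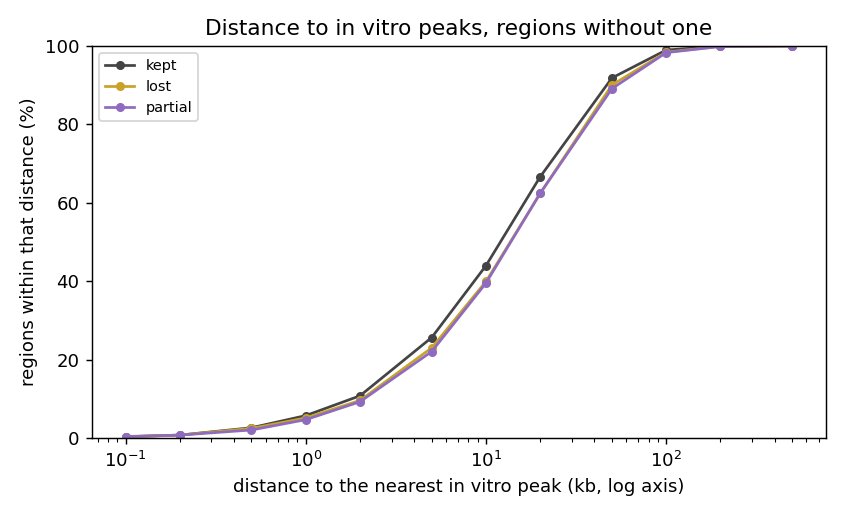
Percent of regions within a given distance (kb, log axis) of an in vitro peak, for regions without one that were kept, lost or partial (a peak in 1 of the 2 shPU.1 lists). The kept curve lies above the others at 10 kb (44.0% against 40.0% and 39.6%).

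With the list as deposited, 55 of the 5246 regions (1.05%) were more than 100 kb from any in vitro peak. The farthest was chrX:12120379-12121838, at 377532 bases, with control scores of 362 and 625 and shPU.1 scores of 233 and 576, at percentiles of 92.2 to 93.9 in the 4 lists. The next were chr17:56174993-56176980 at 218281 bases and chr17:27903693-27905044 at 215768 bases, which scored 56.0 and 50.3 in shPU.1 replicate 1. In vitro peaks on the 3420 in vitro-bound regions scored a median of 165, above the 104 of all in vitro peaks. For the 303 of the 5246 regions with an in vitro peak within 1 kb, the nearest such peak scored a median of 123.

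Another kept region lay within 10 kb of 1375 of the regions (26.2%, exact 95% interval 25.02 to 27.4), against 24.9% (23.4 to 26.3) of kept regions with an in vitro peak and 22.2% (21.2 to 23.4) of lost regions without. Within 50 kb, 62.8% of the regions had a kept neighbour; lost and partial regions were not counted as neighbours. A neighbour without an in vitro peak was found for 17.3% of the regions without and 16.6% of the regions with an in vitro peak. Chained at 10 kb, the 5246 formed 4340 single regions, 367 pairs, 49 runs of 3, 5 runs of 4 and 1 run of 5.

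The run of 5 spanned 23206 bp at chr2:6171976-6195181. Its regions scored up to 395 and 1187 (controls) and 228 and 1048 (shPU.1), and the lowest scores were 59.4, 75.4, 51.6 and 83.6 in the same order. No in vitro peak lay within the whole span. Of the 5 runs of 4, the 2 with the shortest span are named. No in vitro peak lay within that at chr9:58389024-58408793, where scores reached 616 and 1404 (controls) and 194 and 591 (shPU.1). The other, chr4:140122339-140143166, begins with the highest-ranked region named above and also holds 4 regions. It had 1 in vitro peak between its regions and none on them.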

How the data were processed

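Of 15 samples, the PU.1 ChIP libraries from cells and the in vitro pair were used, and the 9 micrococcal nuclease samples were not. The submitters' processing notes name Bowtie 0.12.7, MACS 1.4 and mouse build mm9; their settings were not given in the sources used here. For each list the authors deposited a BED file with the MACS peak score in column 5, called per library against input for cells and against the PU.1-depleted library in vitro, per the deposited files' names. Replicates were not pooled.

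Regions were merged and compared with Python 3.11.15, numpy and scipy. A region with several peaks of a list took the highest. Within-list differences were tested by sign flips over libraries and group differences by permuting libraries, both exact. Regions are not replicates, so no test runs over them. The code was checked on 7352 simulated regions and recovered all 2993 members put in. The simulated regions were spaced so that neighbours did not merge, so the joining of neighbouring peaks was not checked.

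Named regions are the 10 highest by mean percentile, the highest and lowest of each list, the 3 widest, those farthest from and nearest to in vitro peaks with the kept regions of smallest overlap, and the 3 largest runs (ties by the shorter span). Regions from the top 25% sets were named after their values were seen. Members and comparisons were chosen with earlier results of these data known. Motifs, promoters and genes were planned but not analysed here, because the reference tables at hand are on GRCm38 and coordinates were not converted. The 5 lists were not filtered for artefact regions.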

Additional observations from a re-analysis of the deposited data

How the results depend on the processing

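The number of regions (5246) was 2387 with a minimum score of 100 in all lists, 3496 with equal list lengths and 5398 to 9603 with 1 library left out, fewer or more by construction. The share of kept regions without an in vitro peak (60.5%) was 65.0%, 57.5% and 60.6% to 65.6% in the same order. It was 72.2% with a minimum score of 100 in the in vitro list, 63.4% with peaks trimmed to their central 200 bp and 58.9% with in vitro peaks extended by 500 bp. The median distance was 23634 bp with a minimum score of 100 in all lists, 23059 bp with that minimum in the in vitro list only, and 12120 to 12909 bp with 1 library left out. The share with a kept neighbour (26.2%) was 15.7% with a minimum score of 100 in all lists, 15.3% with trimmed peaks and 21.8% with equal list lengths. It was 16.5% within 5 kb, 62.8% within 50 kb and 26.8% to 35.0% with 1 library left out. The percentile gap stayed negative in 13 of 13 alternatives (-10.3 to -6.83 points) and the share among the highest regions stayed lower under the hairpin in 15 of 15 (-31 to -7.33 points). The width ratio was not computed for trimmed peaks, which share 1 width. Taking the replicate number as a block, with a region needing a peak in both lists of a number, gave on average 9512.5 regions, 65.5% without an in vitro peak, 34.6% with a kept neighbour and a gap of -10.3 points (exact sign-flip permutation p 0.5, the smallest for 2 numbers). No label ties a number to a shared culture, and replicate differences in percentile correlated at 0.119 between the groups over the 5246 regions. Settings for the 500 highest regions and for the gap between groups, and the width ratio within deciles, were chosen after seeing the data. Alternatives with 1 library left out cannot give a p below 0.25.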

Other observations

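The share of kept regions without an in vitro peak varied modestly between chromosomes. It ran from 55.7% of 402 kept regions on chromosome 13 (exact 95% interval 50.7 to 60.6) to 67.5% of 434 on chromosome 8 (62.9 to 71.9) over the 19 autosomes. Chromosome 17 stood at 65.8% of 365 (60.6 to 70.6), and chromosome X at 63.2% of 106 (53.3 to 72.4). Chromosome 2 held the most regions without an in vitro peak (420), followed by chromosomes 11 (387) and 1 (382). On chromosome Y, 2 of 7 kept regions had none, and 1 of these is the 27530 bp region. Regions are not replicates and no test was made over chromosomes.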
